A study of Mus musculus with 8 samples.

Results

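The genes Sox2 and Sox1 encode closely related transcription factors of the SoxB1 group, which bind DNA through an HMG box and keep cells of the developing nervous system in a dividing, undifferentiated state. Sox1 is among the first genes switched on as ectoderm becomes neural, and Sox2 is expressed in neural progenitors along the whole neural tube. In the mouse ventral forebrain, Sox2 is required for normal expression of Nkx2-1, a factor that sets medial ganglionic eminence identity, and Sox1 is required for neurons of the ventral striatum. OTX2 is a homeodomain factor of the forebrain and midbrain that recognises the bicoid-class motif TAATCC. Many enhancers around Sox2 are known from chick and mouse, and some of them lie far from the gene.

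OTX2 binding around these 2 genes was read from peak lists of chromatin immunoprecipitation followed by sequencing (ChIP-seq). The windows were chosen by position from the number of OTX2 sites in these same lists, because each gene lies in a 1 Mb stretch that held many sites found in several libraries. The Sox2 window ran from 34.0 to 35.1 Mb of chromosome 3 and the Sox1 window from 11.9 to 12.9 Mb of chromosome 8 (mm9), and a peak belonged to a window if its centre lay in it. Of the 26317 peaks in all 8 lists, 108 belonged to the windows. Counts in the windows are therefore given as a description, with no test.

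The tissue was basal ganglia and septum, dissected from wild-type CD-1 mouse embryos at E12.5 and pooled over embryos. The libraries were 3 of chromatin precipitated with an antibody against OTX2, 3 of input chromatin with no antibody and 2 of chromatin precipitated with normal goat IgG. The IgG libraries were of replicates 1 and 2, and replicate 3 had none. The lists held 1848, 1298 and 22325 peaks for OTX2 replicates 1, 2 and 3, between 138 and 235 for the input libraries, and 149 and 182 for the IgG libraries. Each peak has a position and a rank within its list, where 1 is best, and no height, score or read count, so the depth is unknown. In pooled tissue, sites bound in few cells and sites bound weakly in many cannot be told apart. Replicate 3 stands apart, since its list is far longer, its median peak is 827 bp wide against 191 and 182 bp in replicates 1 and 2, and its track name carries a tag that the first 2 experiments lack. What the tag means is not known, nor whether its peaks were called with other settings. Results are therefore also given without it.

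The sequences just ahead of both genes are shown because replicate 3 peaks lay at or beside both gene starts. They are the 250 bases before the start of each gene in RefSeq (GRCm38.p6, plus strand, Sox2 at chr3:34649745-34649994 and Sox1 at chr8:12395269-12395518), whose coordinates are not comparable with the mm9 peaks. Capitals mark TAATC, the core of the OTX2 motif.
Sox2: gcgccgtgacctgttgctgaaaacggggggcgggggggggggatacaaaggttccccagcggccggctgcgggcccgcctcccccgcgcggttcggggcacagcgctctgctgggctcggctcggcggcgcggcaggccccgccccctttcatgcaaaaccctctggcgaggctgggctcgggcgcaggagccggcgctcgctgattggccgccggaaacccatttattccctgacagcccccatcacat
Sox1: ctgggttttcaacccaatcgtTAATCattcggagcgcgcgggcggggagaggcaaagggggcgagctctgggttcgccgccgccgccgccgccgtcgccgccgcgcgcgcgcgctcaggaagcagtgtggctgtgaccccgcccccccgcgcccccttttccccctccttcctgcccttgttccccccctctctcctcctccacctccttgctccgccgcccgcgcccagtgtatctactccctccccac
The Sox1 sequence held the core once, 229 bases before the start, and the Sox2 sequence did not hold it on either strand (TAATC or its complement GATTA). Neither held the longer TAATCC or GGATTA, which contains the core. Among 32851 upstream sequences of the same length, 19.8% held the core and 6.25% the longer motif. Both were rich in G and C, at 72.0% for Sox2 and 71.2% for Sox1 against a median of 52.4% over all upstream sequences.

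In the same annotation Sox2 lies within the long noncoding gene Sox2ot, and Sox1 within Sox1ot. The nearest protein-coding neighbours of Sox2 are Dnajc19, for a mitochondrial membrane protein, and Atp11b, for a phospholipid flippase, and those of Sox1 are A230072I06Rik and Spaca7. Peaks could not be assigned to any of these genes, because the annotation is of another build. Distances below run from approximate mm9 positions of the genes, 34.55 Mb for Sox2 and 12.395 Mb for Sox1. The first is rounded to 10 kb and the second to 1 kb, so short distances are uncertain by as much.

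Peaks in both windows came from OTX2 libraries only. The Sox2 window held 9, 9 and 38 peaks of OTX2 replicates 1, 2 and 3, against 0 in each of the 3 input and 2 IgG lists. The Sox1 window held 7, 6 and 39 peaks of OTX2 replicates 1, 2 and 3, again against 0 in every input and IgG list. The nearest control peak lay 1.56 Mb outside the Sox2 window and 1.09 Mb outside the Sox1 window, both in input libraries. The control lists held only 138 to 235 peaks each on all chromosomes, so nothing is read from the 0 counts.

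Peaks that overlapped by at least 1 bp were joined into sites, of which the Sox2 window held 38 and the Sox1 window 39. A site was called a shared OTX2 region where 2 or all 3 of the OTX2 libraries had a peak and none of the control libraries did. There were 10 shared regions in the Sox2 window and 8 in the Sox1 window, of 1949 on all chromosomes. All 3 libraries held 4 of the 10 Sox2 regions and 5 of the 8 Sox1 regions, against 40.5% of all shared regions. Of the remaining Sox2 regions, 4 were in replicates 1 and 3 and 2 in replicates 2 and 3. Of the remaining Sox1 regions, 2 were in replicates 1 and 3 and 1 in replicates 2 and 3. The other 59 sites were in replicate 3 alone.

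**Figure D1:**
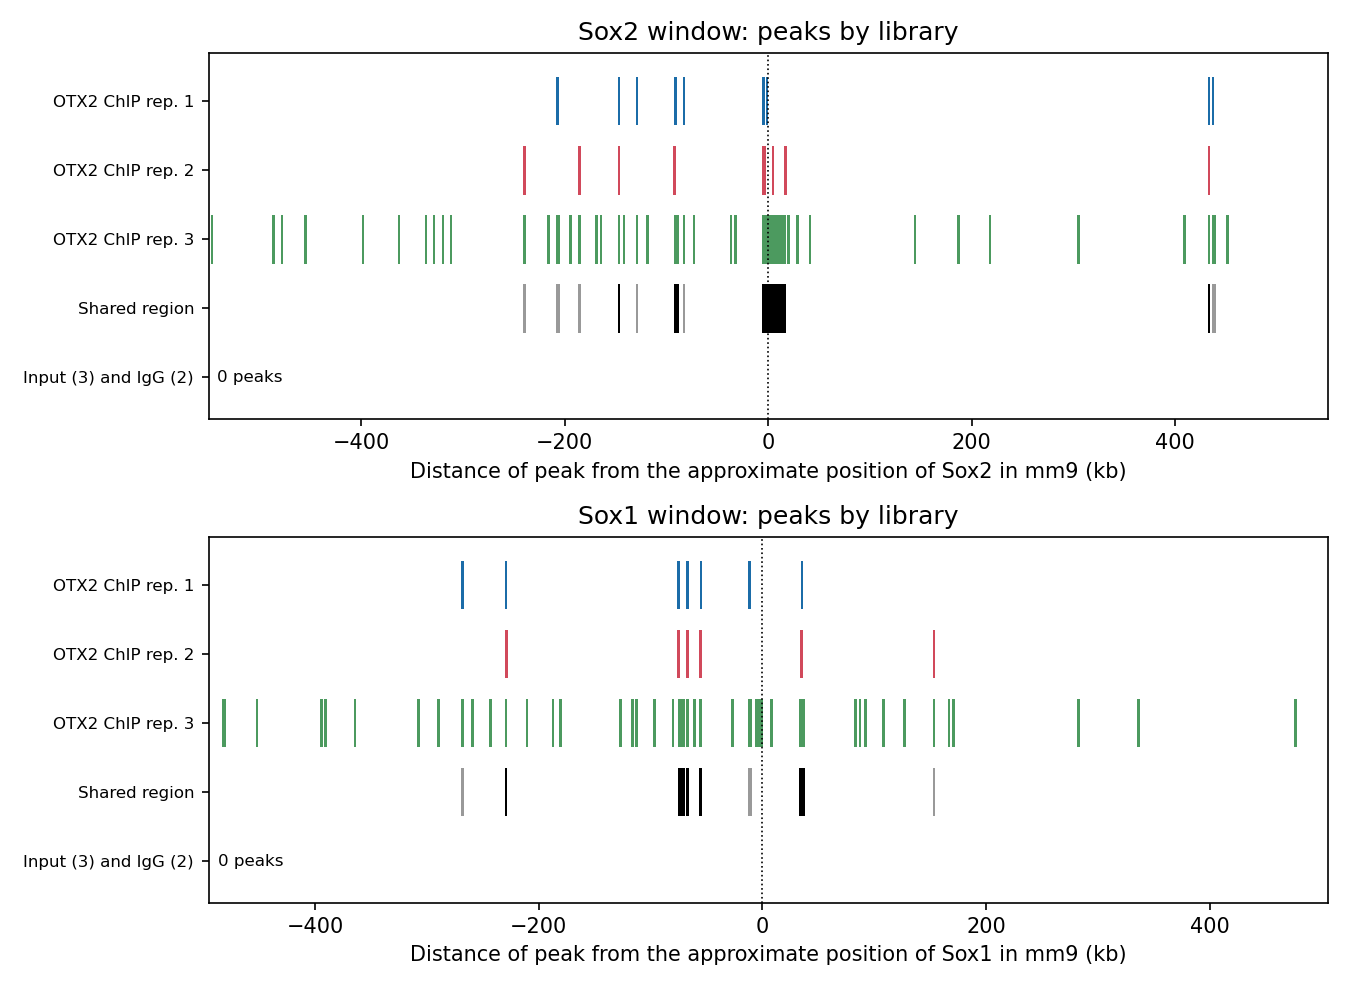
Peaks of each library (rows) by distance in kb from the approximate mm9 position of Sox2 (top) and Sox1 (bottom); black bars are shared regions of all 3 OTX2 libraries, grey bars shared regions of 2, and narrow peaks are drawn at a minimum width of 2.4 kb. Most shared regions lie on the lower-coordinate side of both genes, 7 of 10 at Sox2 and 6 of 8 at Sox1. So do most of all sites, 26 of 38 at Sox2 and 26 of 39 at Sox1, so the side is not particular to shared regions. The input and IgG row is empty.

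In the Sox2 window, the site ranked best by replicates 1 and 3 spanned the approximate position of the gene. The region chr3:34543653-34567550 was ranked 171 in replicate 1, 636 in replicate 2 and 191 in replicate 3, and it contains the approximate position of Sox2 with several kb on either side. It was 23.9 kb wide. Its replicate 3 peak was the second widest of the 22325 in that list and the widest of all those that overlapped no control peak. The widest, 46.7 kb on chromosome 2, overlapped control peaks, as did the third widest, 11.5 kb on the same chromosome.

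Within this wide peak, replicates 1 and 2 had 6 narrow peaks of 144 to 385 bp. Replicate 1 had peaks at chr3:34545132-34545516, ranked 171, and at chr3:34548998-34549187, ranked 1518. Replicate 2 had peaks at chr3:34545359-34545509, ranked 654, at chr3:34547096-34547253, ranked 1238, at chr3:34554641-34554784, ranked 636, and at chr3:34566914-34567061, ranked 817. The first peaks of each library coincided, with the whole 151 bp replicate 2 peak inside the replicate 1 peak, starting 1706 bp from the lower edge of the wide peak. The other 4 had no counterpart in the other library, among them the best-ranked replicate 2 peak of the region. The region is thus 1 position found in all 3 libraries and 4 found in replicate 3 and a single further library.

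**Figure D2:**
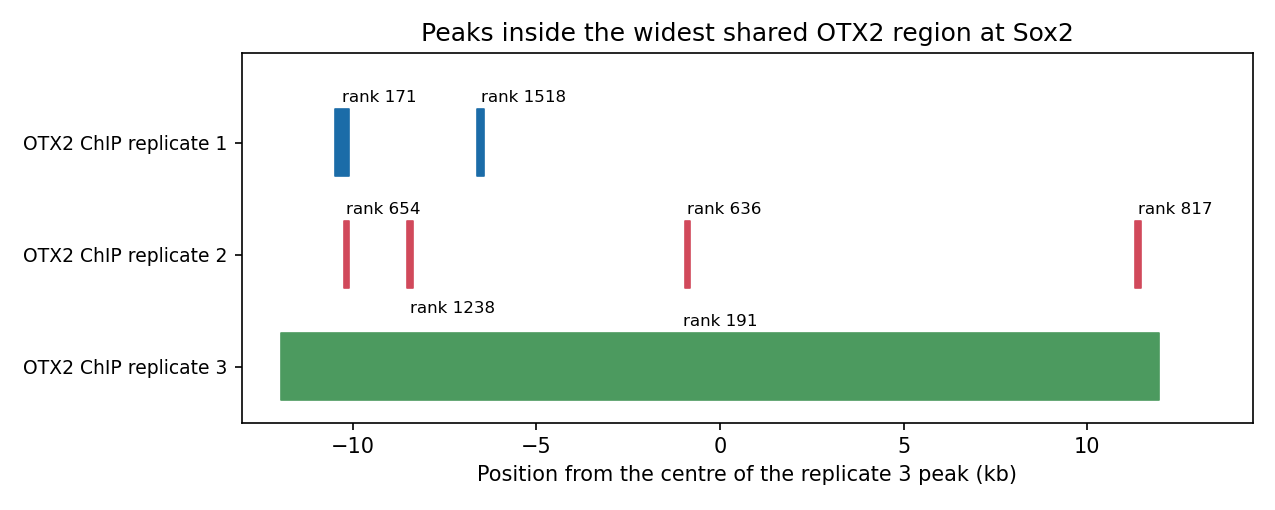
Peaks of the 3 OTX2 libraries inside the region at Sox2, by position in kb from the centre of the 23898 bp replicate 3 peak, with the rank of each peak in its own list. Replicates 1 and 2 overlap at the left end (ranks 171 and 654), and their other 4 peaks do not overlap each other.

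A run of 7 shared regions lay on the lower-coordinate side of Sox2, between 240 and 82.7 kb from the gene. Of these, chr3:34402366-34404174, 147 kb away, was ranked 408, 421 and 372 in replicates 1, 2 and 3. The region chr3:34457484-34462511, 90.0 kb away, was ranked 338, 174 and 389. These are the 2 of the 7 that all 3 libraries held, and they had the best ranks of the run in every library.

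The match between libraries differed at these 2 regions. At 147 kb the narrow peaks of replicates 1 and 2 overlapped by 46 bp. At 90.0 kb they did not overlap and were 743 bp apart, with the replicate 2 peak at chr3:34457953-34458204 and the replicate 1 peak at chr3:34458948-34459213. Only the 5.03 kb replicate 3 peak joined them. Over all shared regions of 3 libraries, 94.8% had an overlap between replicates 1 and 2, and here 3 of 4 at Sox2 and 5 of 5 at Sox1 did.

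The other 5 regions of the run were in 2 libraries and were ranked lower. Replicates 1 and 3 held chr3:34341708-34345270 (ranks 1150 and 2333), chr3:34420616-34421916 (ranks 1135 and 668) and chr3:34466806-34467707 (ranks 1185 and 3527). Replicates 2 and 3 held chr3:34309744-34311181 (ranks 854 and 1119) and chr3:34364008-34365246 (ranks 1056 and 3400). In replicates 1 and 2 these 5 peaks stood between 61.4% and 81.4% of the way down their lists.

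On the higher-coordinate side no shared region was found for 415 kb past the wide region at Sox2, although 8 sites of replicate 3 alone lay there. Then followed a close pair 2.58 kb apart. The first, chr3:34982860-34984184, 434 kb from the gene, was ranked 244, 278 and 306 in replicates 1, 2 and 3, and its narrow peaks overlapped by 217 bp. The second, chr3:34986760-34990052, was ranked 240 in replicate 1 and 1898 in replicate 3, and replicate 2 had no peak there. Whether this distant pair acts on Sox2 or on another gene was not tested.

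At Sox1, 4 of the 5 regions of all 3 libraries lay within 100 kb of the gene, and none lay at it. A cluster of 3 lay between 72.4 and 55.2 kb on the lower-coordinate side, with gaps of 1273 and 10014 bp between them. The region chr8:12319444-12325667 was ranked 683, 281 and 456 in replicates 1, 2 and 3, chr8:12326941-12328958 was ranked 446, 157 and 492, and chr8:12338973-12340687 was ranked 675, 181 and 206. In each of the 3, replicate 2 placed the site higher in its list than replicate 1 did. Their narrow peaks overlapped by 253, 191 and 82 bp, with centres 33.5, 117.5 and 51.0 bp apart.

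Another region of all 3 libraries lay on the other side of Sox1, at chr8:12427787-12433255, 35.5 kb away. It was ranked 554, 774 and 419 in replicates 1, 2 and 3, with an overlap of 133 bp between replicates 1 and 2. The fifth, chr8:12165156-12166422, lay 229 kb away on the lower-coordinate side and was ranked 1050, 807 and 1935. It was the lowest-ranked of the 5 in every library.

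The other 3 Sox1 regions were in 2 libraries. The best-ranked was chr8:12126049-12128230, 268 kb away, ranked 205 in replicate 1 and 248 in replicate 3, where replicate 2 had no peak. Its replicate 1 peak was the best of that library in the window and, at 1193 bp, the widest. Replicates 2 and 3 held chr8:12547731-12548994, 153 kb away on the higher-coordinate side, ranked 647 and 1987.

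Sites next to the start of Sox1 itself ranked below the other shared regions of both windows in replicate 3. The shared region nearest to it, chr8:12382450-12385865, 10.8 kb away, was ranked 1595 in replicate 1 and 8653 in replicate 3, the lowest rank of any shared region here in both libraries. Replicate 3 alone had a 7.25 kb peak at chr8:12388178-12395428, ranked 5314, which ends near the approximate position of the gene. Whether it reaches the start of Sox1 cannot be told at this precision. At Sox2 the approximate position of the gene lay inside a replicate 3 peak ranked 191, but that peak was 23.9 kb wide. The overlapping peaks of replicates 1 and 2 within it were centred 4.68 and 4.57 kb from that position. The narrow peak nearest to that position, 0.908 kb away in replicate 1, was ranked 1518. Since the position of Sox2 is rounded to 10 kb, which narrow peak lies nearest to the gene itself cannot be told. At Sox1 the nearest narrow peaks were 11.5 kb away in replicate 1, ranked 1595, and 35.1 kb away in replicate 2, ranked 774. The genes thus differed in replicates 1 and 2 as well as in the replicate 3 peak.

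**Figure D3:**
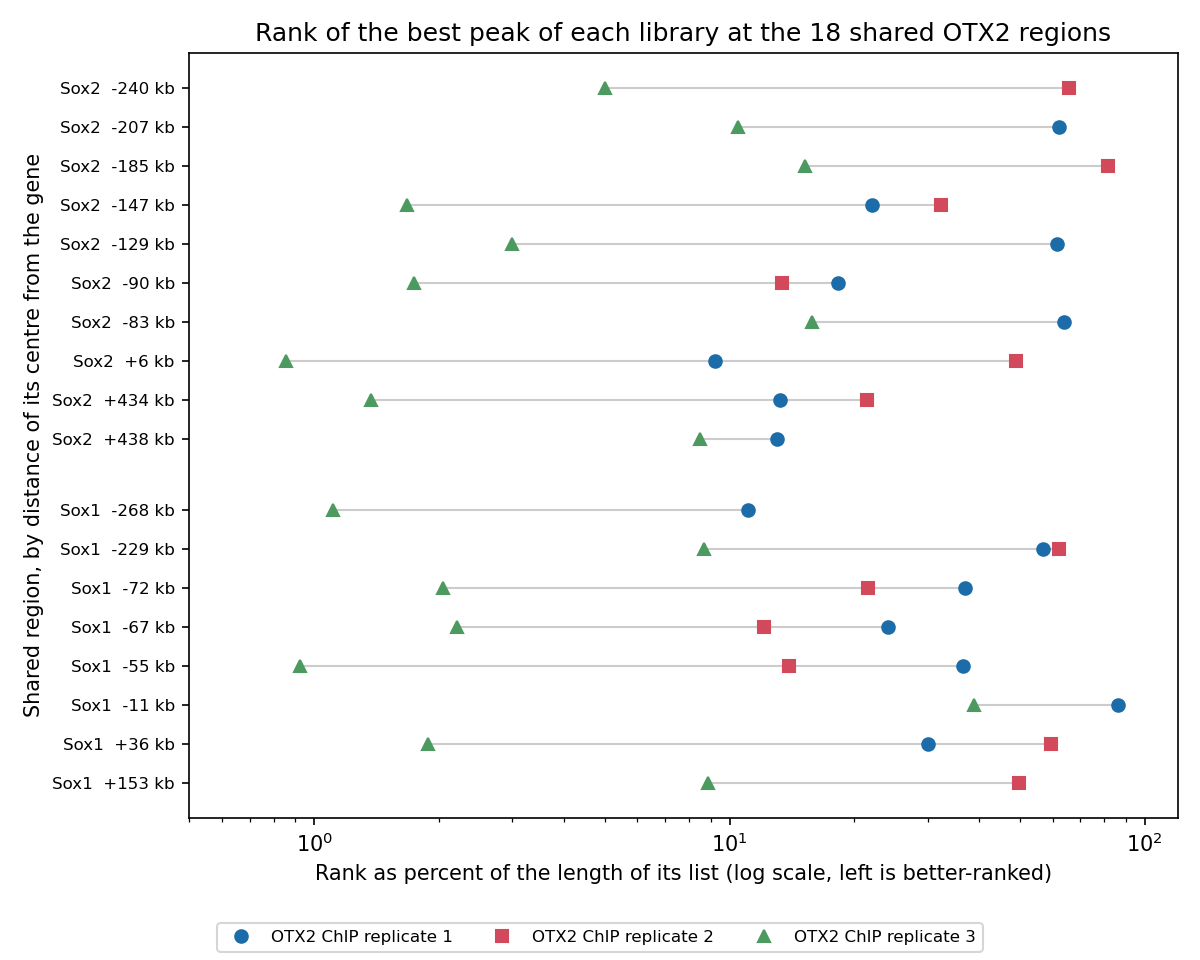
Rank of the best peak of each OTX2 library as a percent of the length of its list (log scale) at the 18 shared regions, in order along the chromosome and labelled by distance in kb from Sox2 or Sox1. In replicate 3 the regions run from 0.856% at Sox2 to 38.8% at the region 11 kb from Sox1, which is also last in replicate 1 at 86.3%; percents are to be read within a library, since the replicate 3 list is far longer and like ranks give lower percents in it.

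The ranks at the 18 regions can be set beside those of all shared regions. Replicate 3 peaks were in the best-ranked 10% of that list at 7 of 10 Sox2 regions and 7 of 8 Sox1 regions, against 73.7% of all shared regions with a replicate 3 peak. The median replicate 3 rank was 893.5 for Sox2 regions and 474 for Sox1 regions, against 1112.5 for all shared regions. Across the regions of both windows, ranks of replicates 1 and 3 had a Spearman correlation of 0.77 (15 regions), those of replicates 2 and 3 of 0.56 (12 regions) and those of replicates 1 and 2 of 0.25 (9 regions). Over all chromosomes the values were 0.77, 0.78 and 0.66. Each region entered with the best-ranked peak of each library. At the wide region at Sox2 and the one 90.0 kb from it, these peaks of replicates 1 and 2 did not overlap. The regions share their libraries and are not independent.

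All 16 replicate 1 peaks and all 15 replicate 2 peaks of the windows lay in shared regions, against 86.5% and 89.7% of these lists. Of replicate 3 peaks, 10 of 38 at Sox2 and 8 of 39 at Sox1 did, against 8.71% of the list. Since the windows were chosen on shared regions, nothing is read from these shares.

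Replicate 3 peaks wider than 5 kb made up 2 of 38 peaks at Sox2 and 3 of 39 at Sox1, against 0.233% of that list. At Sox2 they were the 23.9 and 5.03 kb peaks already described. At Sox1 they were the 6.22 kb peak of the cluster, the 5.47 kb peak on its other side and the 7.25 kb peak beside the gene. All 5 lay within 100 kb of Sox2 or Sox1. The 5 kb limit was chosen after seeing the data, and the narrowest of the 5, at 5028 bp, barely passed it. A wide peak can also overlap more peaks of other libraries, and the windows were chosen on shared regions. Nothing is therefore read from the share of wide peaks. In the wide regions the narrow peaks of replicates 1 and 2 marked a small part: at 6.22 kb they began 423 and 427 bp from the lower edge, and at 5.47 kb both lay near the middle.

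**Figure D4:**
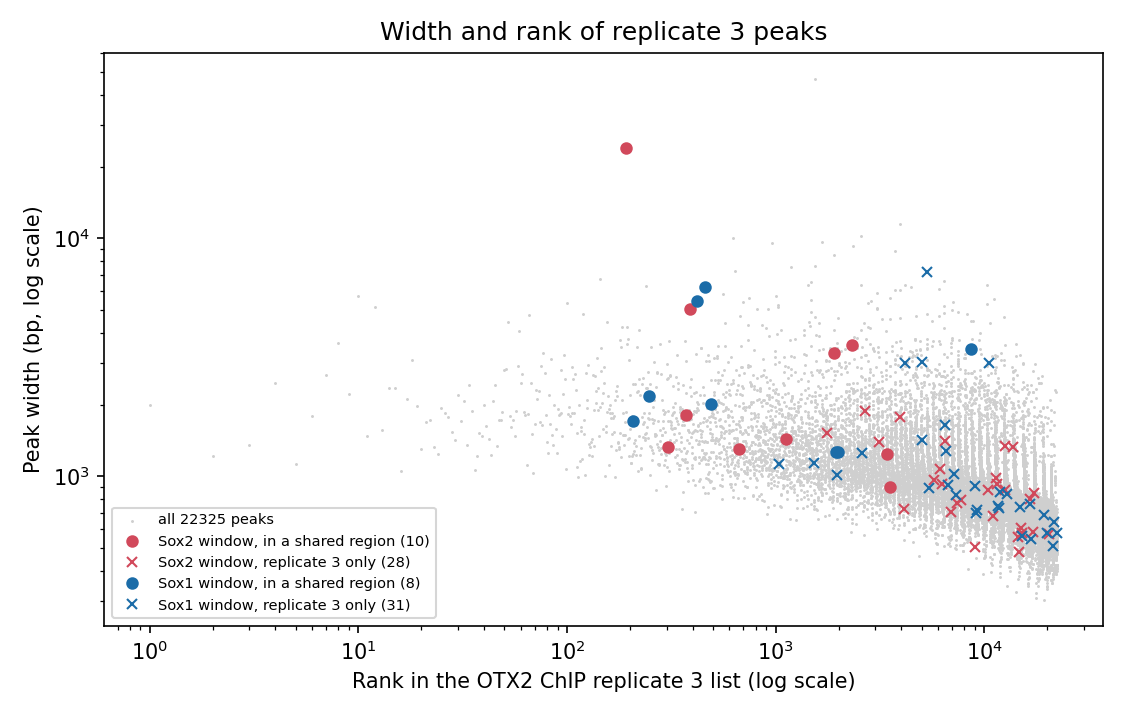
Width in bp against rank of all 22325 OTX2 replicate 3 peaks (grey, both axes log scale), with those of the Sox2 window in red and of the Sox1 window in blue (circles in shared regions, crosses in replicate 3 alone). The 23898 bp peak at Sox2 lies above every peak but the one of 46712 bp on chromosome 2, and the 7251 bp cross is the replicate 3 peak beside Sox1.

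On median, the 59 sites of replicate 3 alone were ranked lower than the shared regions. Their median rank was 10704 at Sox2 (28 sites) and 9110 at Sox1 (31 sites), against 12118.5 for such sites on all chromosomes. The 3 best at Sox2 were chr3:34002369-34003884 (rank 1756), chr3:34094285-34096156 (rank 2669) and chr3:34229856-34231246 (rank 3135), which lay 547, 455 and 319 kb from the gene. The 3 best at Sox1 were chr8:12135550-12136673 (rank 1037), chr8:12213748-12214881 (rank 1520) and chr8:12207207-12208218 (rank 1963), which lay 259, 181 and 187 kb away. The first 2 of these 3 ranked better in replicate 3 than the region of all 3 libraries 229 kb from Sox1 (rank 1935), although replicates 1 and 2 had no peak there.

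Sites were denser in both windows than just outside them. The windows were chosen for holding many shared regions in these same lists, so nothing is read from this difference. The Sox2 window held 38 sites and 10 shared regions, against 8 sites and 1 shared region in the stretch of equal length below it and 13 sites and 2 shared regions in the one above. The Sox1 window held 39 sites and 8 shared regions, against 19 sites and 1 shared region below and 6 sites and 0 shared regions above. At the edges of the Sox2 window the outermost replicate 3 peaks inside were chr3:34002369-34003884 (rank 1756) and chr3:35001165-35002567 (rank 6466), and the nearest outside were chr3:33855103-33855888 (rank 14740) and chr3:35124098-35124993 (rank 5816). At the edges of the Sox1 window they were chr8:11912222-11915214 (rank 10487) and chr8:12871120-12872137 (rank 7123) inside, and chr8:11896224-11896946 (rank 13079) and chr8:12947370-12948212 (rank 7406) outside.

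Along the genome, 1 Mb bins with at least 8 shared regions were rare (0.348% of 2584 bins), and the bins of Sox2 and Sox1 were 2 of 9. Both genes were chosen because their bins held many shared regions, so their place among the 9 restates that choice. The bin of Sox2 held 10 shared regions and that of Sox1 8, against 8 to 12 in the other 7 bins. In the Sox2 bin a replicate 1 peak overlapped a replicate 2 peak at 3 regions and in the Sox1 bin at 5, against 2 to 9 in the others. The widest replicate 3 peak was 23898 bp in the Sox2 bin and 7251 bp in the Sox1 bin, against 2130 to 6365 bp in the others. Control peaks numbered 0 in the bins of both genes, against 0 to 2 in the others.

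A recount from replicates 1 and 2 alone gave 3 regions in the Sox2 window and 5 in the Sox1 window, against 759 on all chromosomes, where the count with all 3 libraries was 1949. The 3 at Sox2 were those at the gene, 147 kb below it and 434 kb above it. The 5 at Sox1 were the cluster of 3 and the regions 35.5 and 229 kb away. Without replicate 1 the counts were 6 at Sox2 and 6 at Sox1, and without replicate 2 they were 8 and 7.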

How the data were processed

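The deposited data were 1 peak list per library, made by the authors: chromosome, start, end and rank. Per the submitters' processing notes, BWA, MACS 1.4 and mm9 were used. Which control and threshold went into peak calling, and on what the ranks rest, is not stated in the sources used here. Groups and replicate numbers came from sample titles. Whether the 3 experiments came from different litters is not in the labels.

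The members and lists were chosen with earlier results of these data known. Coordinates are mm9, written 1-based. Overlaps (at least 1 bp) were found with Python 3.11.15 (numpy 2.4.6, scipy 1.17.1), tested on simulated data and checked against bedtools 2.31.1, which gave the same 1625 replicate 1 peaks overlapping replicate 3. No significance test was run, since the windows were chosen on these counts. Sites named were all shared regions and the 3 best-ranked sites of a single OTX2 list in each window. Peak sequences were not analysed here, since no mm9 genome was used. Upstream sequences and gene names came from RefSeq (GRCm38.p6), where both genes were found by symbol. Alternatives changed the overlap, ranks kept, list length, peak width, control peaks, window rule and libraries.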

Additional observations from a re-analysis of the deposited data

How the results depend on the processing

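Of the 18 shared regions, 7 were found under all 11 alternatives that still required 2 libraries, 3 of 10 at Sox2 and 4 of 8 at Sox1. At Sox2 the count of 10 became 5 with the better-ranked 50% of each list, 6 with lists cut to 1298 peaks, 38 with any 1 OTX2 list, and 3 to 8 with 1 library left out. At Sox1 the count of 8 became 39 with any 1 list and 5 to 7 with 1 library left out. Regions of all 3 libraries numbered 4 at Sox2, but 2 with peaks cut to 200 bp, 2 without replicate 3 peaks wider than 5 kb (chosen after seeing the data), and 3 to 8 in both remaining libraries with 1 left out. They numbered 5 at Sox1, but 3 with the better-ranked 50%, 3 with 200 bp peaks, 3 without the wide peaks, and 5 to 7 with 1 library left out. Shorter lists and narrower peaks leave fewer overlaps by construction, while leaving out 1 library also lowers the number required for regions of all libraries, from 3 to 2. The remaining alternatives stayed within 1.5 times the count reported. The depth is unknown, so a missing peak does not show that a site was unbound. No paired analysis was possible because no result comes from a test.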
